A study of Mus musculus with 12 samples.

Results

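The 10 genes described here belong to the interleukin 17, 22 and 20 axis of skin immunity. They are the cytokine genes Il17a, Il17f, Il17c, Il23a, Il22, Il19, Il20 and Il24, the receptor gene Il20rb, and Nfkbiz, which encodes a nuclear cofactor of NF-kappaB that keratinocytes use downstream of the IL-17 receptor. They were taken by name, with earlier results of these data known, from 53465 gene identifiers counted in each library. All 10 were found, 2 had no read in any of the 12 libraries, and 4 passed the filter on low counts and were tested.

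The libraries are bulk RNA sequencing of mouse skin, 3 in each of 4 groups. Mice carried Foxp3-WT (WT) or an altered Foxp3, the transcription factor of regulatory T cells, that the sample labels call Foxp3-E2 and the protocol Foxp3-DE2 (DE2 below). From each genotype came an irradiated flank site, which had been shaved and given 6 doses of ultraviolet B light (UVB), and an untreated site. As described, shaving goes with irradiation, so a difference with UVB below cannot be told apart from an effect of shaving. The dose is 200 mJ/cm2 in the sample labels and 100 mJ/cm2 in the protocol. The sources used here do not give strain, sex, age, the time from the last dose to collection, or which libraries share a mouse. The p-values therefore reflect only the spread among libraries, which may be partly technical. The labels name no drug or further allele, and do not say how the altered form was made.

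Total counts ran from 2809142 to 4741726 per library. Foxp3 itself had 8 counts in irradiated DE2 and 0 in each library of the other 3 groups, which checks neither the labels nor exon usage. All 12 epidermal keratinocyte markers had counts in every group. Libraries differed in their tissue mix: hair follicle markers summed to 204 to 891.5 CPM, that is counts scaled to one library size, in untreated DE2 and to 10060 to 31230 CPM in the other 3 groups, and skeletal muscle markers took 12.9% ± 3.77 (SD, n = 3) of the counts in untreated DE2 and 3.94% to 4.99% on average elsewhere. Neutrophil markers, S100a8 and S100a9 among them, summed to 4773 to 5055 CPM in irradiated DE2 and to 136.3 to 488.7 CPM elsewhere. The part of this tissue mix in the results below was not tested except where a value is given. In bulk RNA, fewer cells of a type and less RNA per cell cannot be told apart.

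IL-23, a heterodimer of the Il23a and Il12b products made by dendritic cells and macrophages, sustains lymphocytes that secrete IL-17A, IL-17F and IL-22. IL-17A and IL-17F signal through IL-17RA with IL-17RC, IL-17C, an epithelial cytokine, through IL-17RA with IL-17RE, and in keratinocytes these receptors raise antimicrobial proteins and neutrophil attractants through NF-kappaB and the Nfkbiz product. IL-22 signals through IL-22RA1 with IL-10RB, while IL-19, IL-20 and IL-24 share receptors built on the Il20rb chain, and this whole group acts through STAT3 on keratinocyte growth and differentiation, as studied in psoriasis.

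Il17a (ENSMUSG00000025929, chromosome 1, 20730905 to 20734496, plus strand, GRCm38) and Il17f (ENSMUSG00000041872, chromosome 1, 20777146 to 20790617, minus strand), neighbours 42.6 kb apart, had 0 counts in all 12 libraries. With a limit of 3 counts over the 3 libraries of a group, the level could still reach 0.219 CPM (untreated WT), 0.273 CPM (irradiated WT), 0.267 CPM (untreated DE2) or 0.284 CPM (irradiated DE2). These limits, and the 95% intervals given below for ratios of counts, cover counting error only, and reads were not tagged as single molecules as far as the sources used here say. Transcripts of the 2 signature cytokines were thus not detectable at this depth at either site in either genotype. The promoter of Il17a, from RefSeq on GRCm38.p6, is shown because its transcript was looked for here and not detected, and because T helper 17 cells are known to use AP-1 factors such as BATF in switching this gene on. It is chr1:20730655-20730904, plus strand, the 250 bases before the start, and capitals mark an AP-1 match (TGANTCA, bases -244 to -238).
Il17a: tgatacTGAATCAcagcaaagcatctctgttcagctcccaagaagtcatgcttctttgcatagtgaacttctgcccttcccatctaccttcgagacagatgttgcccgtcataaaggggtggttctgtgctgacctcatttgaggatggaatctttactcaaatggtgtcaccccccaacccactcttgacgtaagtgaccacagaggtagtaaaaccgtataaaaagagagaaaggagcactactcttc
Searched on both strands, the AP-1 letters occur in 6.749% of 32851 promoter windows of that length, so a match describes the letters and not a site in use.

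Il17c (ENSMUSG00000046108, chromosome 8, 122422020 to 122423639, plus strand), the epithelial member, had 4 counts in irradiated DE2 library 2, 1 count in untreated DE2 library 2 and 0 in the other 10 libraries. It lay inside an annotated readthrough gene on the same strand, Gm20388, which had 0 counts. Reads that fall in both genes may have been left out of the counts of either, which was not tested. Of the other genes of the family Il25 had 0 counts and Il17b 12 in all, of which 9 were in irradiated DE2 (4, 4 and 1 by library). Il17d, made by many non-immune tissues, had mean CPM of 3.32 ± 2.20 for untreated WT, 2.65 ± 0.428 for irradiated WT, 0.370 ± 0.642 for untreated DE2 and 2.67 ± 1.95 for irradiated DE2. Groups of Il17d overlapped in all 4 comparisons and none passed. The most abundant IL-17 ligand transcript measured was therefore Il17d, at 2.60 CPM per kb of exon in untreated WT.

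Il23a (ENSMUSG00000025383, chromosome 10, 128296139 to 128298752, minus strand) had 16, 7 and 7 counts in the irradiated DE2 libraries. It had 9 counts in untreated DE2 library 1, and 0 in the other 2 untreated DE2 libraries and in all 6 WT libraries. In CPM the irradiated DE2 libraries were at 4.35, 1.69 and 2.55, all above every irradiated WT library. With 30 counts against 0, Il23a was at least 10.4-fold higher in irradiated DE2 than in irradiated WT. This bound, like the later ones of its kind, takes the counts of the higher group as exact. Against untreated DE2 the ratio was 3.55 (95% interval 1.64 to 8.50), and those groups overlapped. Il23a was below the filter and has no test in the fit. Without the filter it did pass for genotype at the irradiated site (edgeR's quasi-likelihood test, adjusted p = 0.0446). That fit called more genes: 3.57% of 28874 in this comparison, beside 2.96% with the filter. For UVB in WT it called 0.488%, beside 0.0198% with the filter.

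The partner chain of IL-23 was nearly absent. Il12b had 5 counts, all in library 2, in irradiated DE2, 1 count in untreated WT and 0 elsewhere. Il12a, which pairs with Il12b to make IL-12, was at 13.4 ± 11.7 CPM in untreated DE2 (0, 21.8 and 18.3 by library) and 1.43 ± 2.24 CPM in irradiated DE2, and passed in no comparison. Il23r, the receptor chain of IL-23, had 2, 3 and 3 counts in irradiated DE2, 7 counts in irradiated WT library 1, 3 in untreated DE2 library 1 and 0 in the other 7 libraries. Il12rb1 had 15 counts in all, 10 of them in untreated WT library 2. Il12rb2, a chain of the IL-12 receptor, fell with UVB in DE2, by 3.75 ± 1.11 on the log2 scale (SE; adjusted p = 0.0203), although the groups overlapped. That call was lost without untreated DE2 library 1 (adjusted p = 0.0881), irradiated DE2 library 2 (0.0638) or irradiated DE2 library 3 (0.0648). It was the single call among the 2 tested genes of IL-23 and IL-12 chains in the 5 comparisons.

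Il22 (ENSMUSG00000074695, chromosome 10, 118204942 to 118210047, plus strand), a lymphocyte product that acts on epithelium, had 6 counts in irradiated DE2 library 1 and 0 in the other 11 libraries. One library at 1.63 CPM is the whole signal. Pooled over irradiated DE2, Il22 was at 0.569 CPM (95% counting interval 0.209 to 1.24), beside a limit of 0.273 CPM in irradiated WT. Taking the 6 as exact, Il22 was at least 2.09-fold higher in irradiated DE2 than in irradiated WT, while the interval and the limit overlap. With all 6 counts in 1 library, Il22 is not placed higher in irradiated DE2 as a group. Il10, the founder of the family, had 7 counts in irradiated WT library 1, 2 in untreated WT library 3 and 0 in all 6 DE2 libraries.

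**Figure D1:**
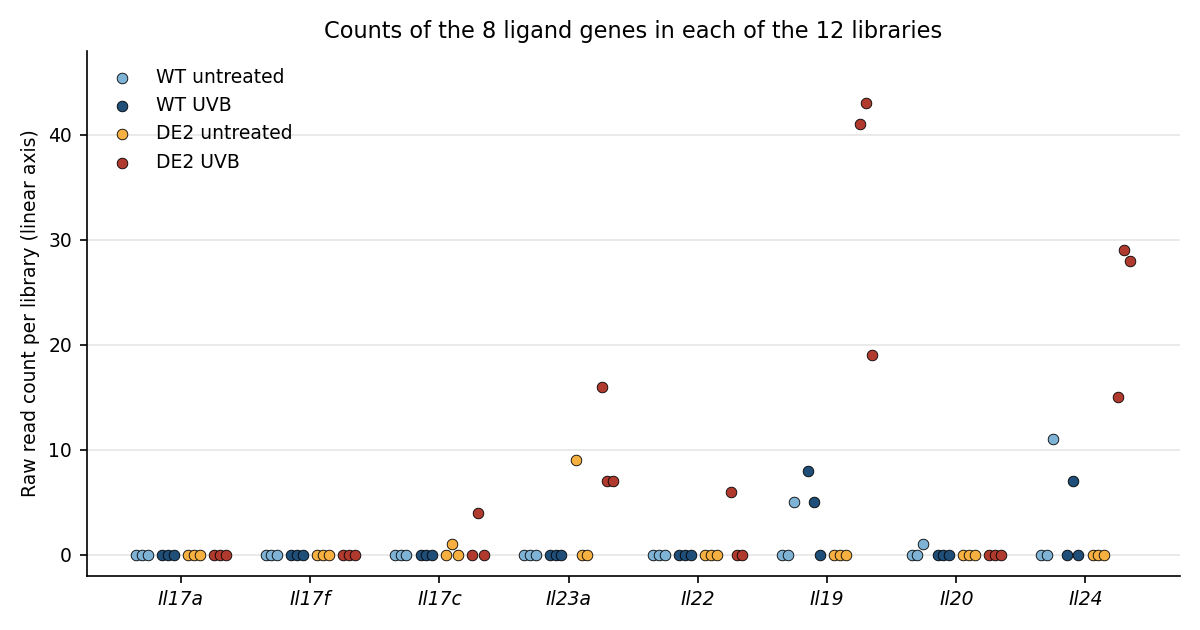
Raw read counts (linear axis) of the 8 ligand genes in each of the 12 libraries, 1 point a library, coloured by group. Il19 and Il24 reach 43 and 29 counts in irradiated DE2, Il23a reaches 16, and Il17a and Il17f stay at 0 in every library.

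Il19, Il20 and Il24 lie in 58.0 kb of chromosome 1, all on the minus strand. Il24 (ENSMUSG00000026420) spans 130882074 to 130887454, Il20 (ENSMUSG00000026416) 130906985 to 130911451, 19.5 kb away, and Il19 (ENSMUSG00000016524) 130932656 to 130940115, a further 21.2 kb away. The outer genes of this cluster had counts in irradiated DE2 and the middle gene did not. The protein-coding neighbours Fcamr, Pigr, Fcmr and Il10 had 61, 6, 20 and 9 counts over all libraries and were not tested.

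Il19, whose product keratinocytes and macrophages secrete, had 41, 43 and 19 counts in irradiated DE2, or 11.2, 10.4 and 6.93 CPM. It had 8, 5 and 0 counts in irradiated WT, 0, 0 and 5 in untreated WT and 0 in all 3 untreated DE2 libraries. Every irradiated DE2 library was above every library of the other 3 groups. Il19 passed the filter only through irradiated DE2, so a difference from the other groups was bound up with its being tested. With UVB in DE2, Il19 rose at least 36.6-fold (103 counts against 0, edgeR's quasi-likelihood test, adjusted p = 0.00538). The call held with each library left out in turn, at adjusted p from 0.00278 to 0.0196. It was lost with the muscle marker share (0.0593) or the hair follicle marker share (0.838) as a covariate.

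At the irradiated site Il19 averaged 9.50 ± 2.26 CPM in DE2 against 1.14 ± 1.10 CPM in WT libraries (SD, n = 3). That difference, 3.01 ± 1.20 on the log2 scale, did not pass over all genes (edgeR, adjusted p = 0.242), although the groups did not overlap. It passed with limma voom (adjusted p = 0.0476). In WT the UVB difference was 1.61 ± 1.32 with overlapping groups (adjusted p = 1). With a library left out it was between 0.80 (without irradiated WT library 1) and 5.18 (without untreated WT library 3, which held all 5 untreated WT counts, so that this size is no measure). The interaction, which asks whether the UVB response differs between genotypes, was at adjusted p = 0.0977 with edgeR and 0.0397 with DESeq2. Across alternatives the genotype difference in UVB response of Il19 is thus on either side of the threshold.

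Il24, a product of keratinocytes and activated T cells, had 15, 29 and 28 counts in irradiated DE2, or 4.08, 7.02 and 10.2 CPM. It had 7 counts in irradiated WT library 2, 11 in untreated WT library 3 and 0 in the other 7 libraries. As for Il19, all irradiated DE2 libraries were above all others. Il24 too passed the filter only through irradiated DE2, so its difference was bound up with its being tested. With UVB in DE2, Il24 rose at least 25.6-fold (72 counts against 0, edgeR, adjusted p = 0.0196). This call was lost without untreated DE2 library 2 (adjusted p = 0.0567), untreated DE2 library 3 (0.0572) or irradiated DE2 library 3 (0.0527), and with DESeq2 (0.0581). The call held with the muscle share as a covariate (0.0182), at a fitted 16.5 on the log2 scale beside 7.78 without it. Neither size is a measure against 0 counts. With the follicle share it did not hold (0.839).

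Il24 averaged 7.10 ± 3.06 CPM in irradiated DE2 and 0.574 ± 0.994 CPM in irradiated WT, a difference of 3.49 ± 1.54 that did not pass (edgeR, adjusted p = 0.302) while the groups did not overlap. Without irradiated WT library 2, which held all 7 of the irradiated WT counts, it was 7.78 (adjusted p = 0.139), a size that is no measure against 0 counts. In WT the level with UVB was not distinguishable from that without, with a ratio of counts of 0.791 (95% interval 0.26 to 2.24). The interaction was at adjusted p = 0.0786, and at 0.0475 without that library. In untreated skin Il24 had 11 counts in WT, from a single library, against 0 in DE2, with no call (edgeR, adjusted p = 0.176). Taking the 11 as exact, Il24 was at least 3.01-fold lower in DE2. Its 95% counting interval in untreated WT was 0.401 to 1.44 CPM, beside a limit of 0.267 CPM in untreated DE2. Low counts of the cluster were unevenly spread over libraries. The variance of the raw counts, not scaled for depth, was 5.17 times their mean for Il19 in irradiated DE2. For Il24 in untreated WT it was 11 times the mean, which follows from all 11 counts being in 1 library.

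Il20 had 1 count, in untreated WT library 3, and 0 in the other 11 libraries, so that irradiated DE2 allows up to 0.284 CPM beside 9.50 and 7.10 CPM for its neighbours. Per kb of exon, Il19 was at 8.26 CPM and Il24 at 5.12 CPM in irradiated DE2. The promoters of Il19 and Il20 are printed because the pair lies side by side and only one had more than 1 count. RefSeq's window for Il19 is chr1:130940116-130940365, minus strand, 250 bases, and that for Il20 chr1:130911452-130911546, minus strand, of which 155 bases nearest the start were left out as transcribed in GENCODE, leaving 95. Capitals mark, in Il19, a STAT match (TTCNNNGAA, bases -225 to -217) and a match to the NF-kappaB consensus (bases -77 to -68). The Il20 window holds none of the 3 motifs searched.
Il19: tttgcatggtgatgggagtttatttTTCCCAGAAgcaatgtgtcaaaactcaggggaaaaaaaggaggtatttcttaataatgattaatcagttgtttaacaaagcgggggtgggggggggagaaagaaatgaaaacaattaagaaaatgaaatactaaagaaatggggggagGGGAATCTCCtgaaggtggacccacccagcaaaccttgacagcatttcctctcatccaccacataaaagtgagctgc
Il20: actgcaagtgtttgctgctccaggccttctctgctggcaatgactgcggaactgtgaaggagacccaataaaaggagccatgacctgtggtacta
Of 32851 promoter windows 7.02% hold the STAT letters and 7.251% the NF-kappaB consensus. Among the 7 members with a window, Il19 alone held either of them. Il23a, Il24 and Nfkbiz were not matched.

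Il20rb (ENSMUSG00000044244, chromosome 9, 100457719 to 100486788, minus strand), the shared chain of the IL-19, IL-20 and IL-24 receptors, was well counted in every library. Untreated WT libraries were at 114, 85.5 and 107 CPM, and irradiated WT libraries at 49.9, 62.5 and 20.98 CPM. Untreated DE2 libraries were at 221, 144 and 132 CPM, and irradiated DE2 libraries at 51.7, 103 and 72.2 CPM. In both genotypes all irradiated libraries were below all untreated ones. Il20rb fell by 1.13 ± 0.34 on the log2 scale with UVB in DE2 (edgeR, adjusted p = 0.023). The difference in WT was -1.20 ± 0.35, which did not pass over all genes (edgeR, adjusted p = 0.717), and the interaction was 0.07 ± 0.48 (adjusted p = 0.951). The size of the UVB difference was thus not distinguished between genotypes, within an error of 0.48 on the log2 scale.

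The DE2 call of Il20rb was lost without untreated DE2 library 1 (adjusted p = 0.0854), irradiated DE2 library 1 (0.124) or irradiated DE2 library 3 (0.0736), and with totals in place of composition factors (0.0691). With the muscle marker share as a covariate it was -0.53 ± 0.50 (adjusted p = 0.694). Between genotypes, Il20rb averaged 102 ± 14.9 CPM without UVB in WT and 166 ± 48.4 CPM without UVB in DE2, and all DE2 libraries were above all WT libraries (0.70 ± 0.34, adjusted p = 0.154). At the irradiated site the means were 44.4 ± 21.3 CPM (WT) and 75.7 ± 25.9 CPM (DE2), with overlap (0.76 ± 0.35, adjusted p = 0.31). Ordered by mean, untreated DE2 was highest, then untreated WT, irradiated DE2 and irradiated WT, and neither genotype step passed.

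Il20ra, which pairs with Il20rb to bind all 3 cytokines, was also lower in all irradiated libraries of each genotype than in its untreated ones. It was at 52.4, 35.9 and 30.8 CPM in untreated DE2 and 3.26, 6.78 and 2.55 CPM in irradiated DE2, a fall of 3.21 ± 0.46 on the log2 scale (edgeR, adjusted p = 0.000172). In WT it was at 11.1, 7.46 and 14.2 CPM untreated and 4.66, 2.46 and 3.04 CPM irradiated, without overlap (-1.68 ± 0.46, adjusted p = 0.661). In untreated skin Il20ra was higher in DE2 than in WT by 1.86 ± 0.42 (adjusted p = 0.00585), and at the irradiated site the groups overlapped (0.34 ± 0.48, adjusted p = 0.824). The interaction was -1.52 ± 0.64 (adjusted p = 0.14). With the muscle share as a covariate the untreated difference was no smaller, at 2.26, and just over the threshold (adjusted p = 0.0534). Both receptor chains were thus lower in irradiated than in untreated DE2 skin, while Il19 and Il24 were higher there.

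The IL-22 receptor chain Il22ra1 had 21, 26, 27 and 15 counts in untreated WT, irradiated WT, untreated DE2 and irradiated DE2, and was not tested. Il10rb, the chain it shares with the IL-10 receptor, was at 20.9 ± 3.17, 26.9 ± 0.942, 23.4 ± 4.05 and 35.9 ± 9.04 CPM in the same order and passed in no comparison. Il22ra2, a soluble decoy that binds IL-22, was at 16.8, 11.04 and 7.502 CPM in untreated DE2, and 0, 3.15 and 0 CPM in irradiated DE2 (-3.36 ± 1.30, adjusted p = 0.0668). Il10ra, a chain of leukocytes, was higher in DE2 at the irradiated site, with 26.7, 13.1 and 13.1 CPM against 0.274, 3.69 and 0.912 CPM in WT (3.38 ± 0.74, adjusted p = 0.0227). That call was lost without irradiated WT library 1 (adjusted p = 0.0729) or 3 (0.1), or irradiated DE2 library 1 (0.11) or 2 (0.0618). T cell markers summed to 103.5 to 113.7 CPM in irradiated DE2 and 27.67 to 47.67 CPM in irradiated WT, and their part in it was not tested.

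**Figure D2:**
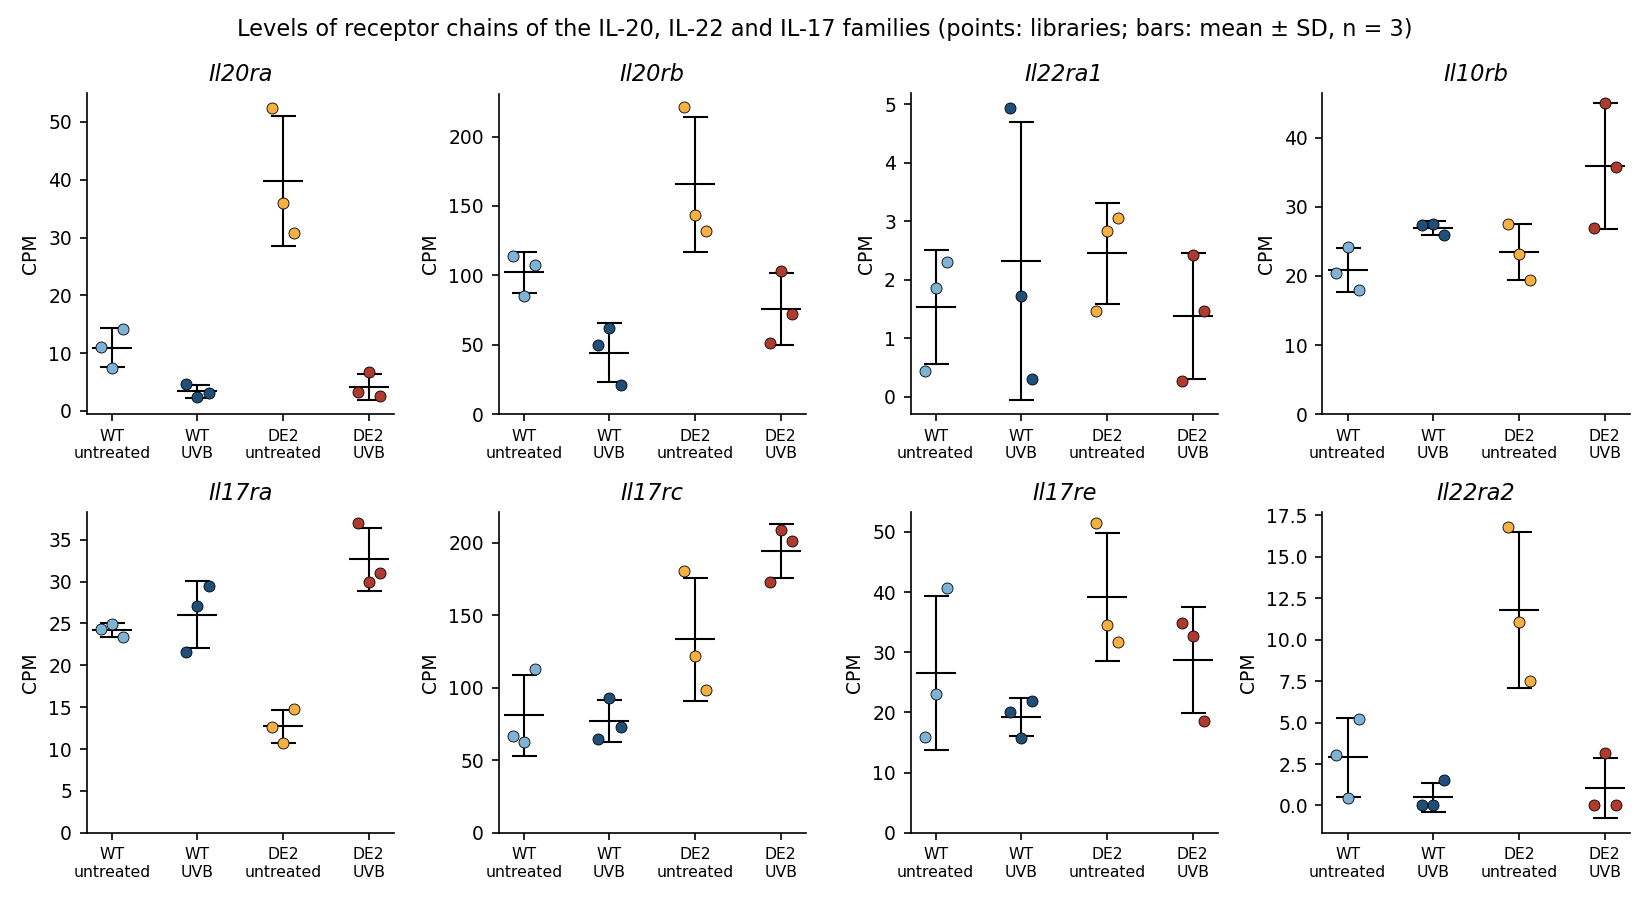
Levels in CPM of 8 receptor genes by group, with 1 point a library and bars for the mean ± SD (n = 3). Il20ra and Il20rb are lower with UVB in both genotypes, Il17rc is highest in irradiated DE2, and Il17ra is lowest in untreated DE2.

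Among receptors for IL-17, Il17rc was higher in DE2 than in WT at the irradiated site, at 173, 209 and 202 CPM against 64.9, 93.0 and 72.7 CPM. The difference was 1.34 ± 0.27 on the log2 scale (edgeR, adjusted p = 0.0137). It was lost without irradiated WT library 1 (adjusted p = 0.07) or 3 (0.0705), or irradiated DE2 library 2 (0.0677). In untreated skin Il17rc had means of 81.0 ± 27.8 CPM (WT) and 134 ± 42.4 CPM (DE2), with overlap (0.72 ± 0.26, adjusted p = 0.0591). Il17ra, the chain common to the family, was instead lower in untreated DE2, at 12.7, 10.8 and 14.7 CPM against 24.4, 24.9 and 23.4 CPM in WT. That difference was -0.93 ± 0.27 (adjusted p = 0.0214), 0.0949 without untreated DE2 library 2 and 0.0896 without a filter. With the muscle share as a covariate it was -0.87 (adjusted p = 0.279).

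With UVB in DE2, Il17ra rose by 1.36 ± 0.27 (adjusted p = 0.00197) to 32.7 ± 3.78 CPM. With the muscle share as a covariate this was 1.29 and did not pass (adjusted p = 0.118), nor did it pass against a 2-fold change (0.213). In WT it was at 24.2 ± 0.804 CPM without and 26.1 ± 4.02 CPM with UVB (0.11 ± 0.26, adjusted p = 1), and the interaction passed at 1.25 ± 0.37 (adjusted p = 0.0442). The interaction did not hold when single libraries were left out: in 10 of the 12 such fits it was over the threshold, up to 0.114 without untreated DE2 library 2, and it was at 0.0582 with limma voom. Il17re, the partner chain for IL-17C, stood at 26.5 ± 12.7, 19.2 ± 3.15, 39.2 ± 10.7 and 28.7 ± 8.81 CPM in untreated WT, irradiated WT, untreated DE2 and irradiated DE2. Il17rb, Il17rd and the adaptor genes Traf3ip2 and Traf6 did not pass in any comparison, and nor did Il17re. Receptor transcripts for IL-17A and IL-17F were thus counted in every library in which those ligands had 0 counts.

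Nfkbiz (ENSMUSG00000035356, chromosome 16, 55811375 to 55838899, minus strand) was at 36.4, 12.6 and 24.4 CPM in the untreated WT libraries and 38.6, 23.4 and 24.9 CPM in the irradiated ones. In DE2 it was at 45.1, 19.8 and 42.0 CPM without and 51.1, 46.0 and 45.6 CPM with UVB. Irradiated DE2 was the tightest group, and its 3 libraries were above all other 9. Nfkbiz passed in no comparison. Its difference between genotypes at the irradiated site was 0.71 ± 0.38 (edgeR, adjusted p = 0.41), and that with UVB in DE2 0.42 ± 0.37 (adjusted p = 0.446). Per kb of exon Nfkbiz was at 9.48 CPM in irradiated DE2, close to Il19 at 8.26 CPM and below Il20rb at 18.0 CPM.

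**Figure D3:**
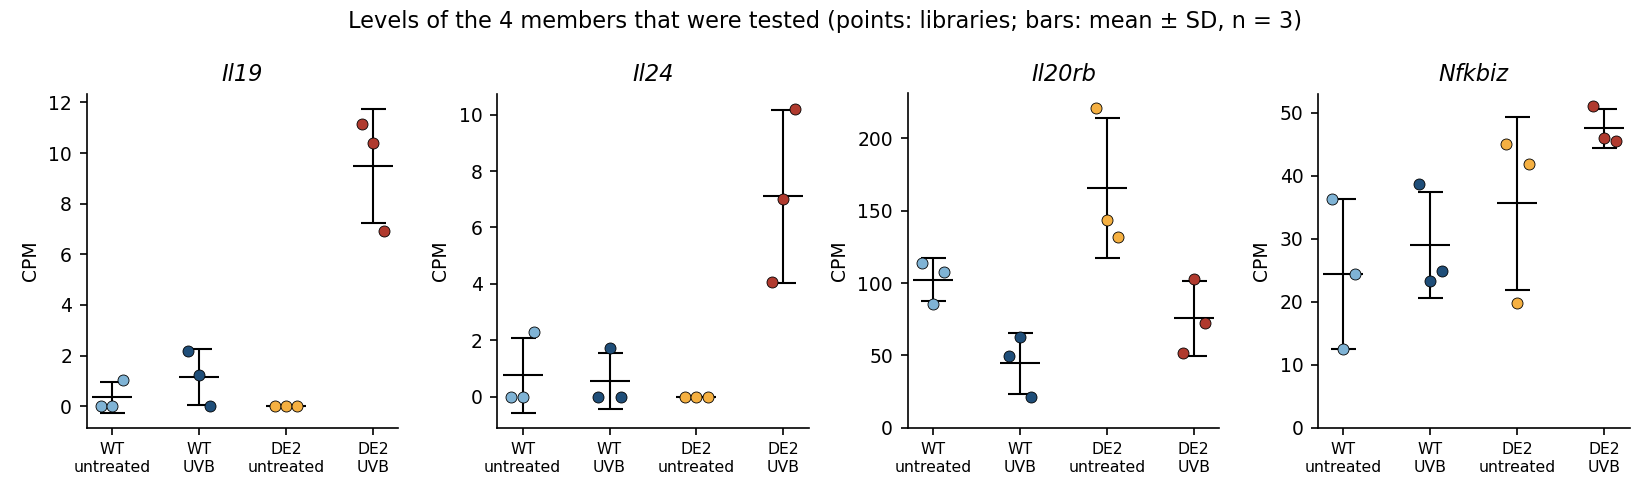
CPM of the 4 tested members by group, with 1 point a library and bars for the mean ± SD (n = 3). Il19 and Il24 are above 4 CPM in irradiated DE2 alone, Il20rb is lower with UVB in both genotypes, and Nfkbiz lies between 45.6 and 51.1 CPM in irradiated DE2.

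Across the 4 tested members, UVB in DE2 gave 2 higher calls (Il19, Il24) and 1 lower call (Il20rb). Of all 15126 genes tested 27.8% were called in that comparison, 14.4% higher and 13.4% lower. All 4 members lay apart there, 3 higher (with Nfkbiz) and 1 lower, as did 22.0% and 19.4% of all genes. Il19 and Il24 passed the filter only through irradiated DE2, so a difference from the other groups was bound up with their being tested, and the count supports nothing by itself. UVB in WT gave 0 calls, where edgeR called 0.0198% of all genes, every one of them higher. There 1 member lay apart, Il20rb on the lower side, as did 5.25% of all genes. Of the members 1 had an unadjusted p under 0.05 there (Il20rb), and DESeq2 and limma voom also called 0.

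Between genotypes at the irradiated site edgeR called 0 of the 4 tested members, against 2.96% of all genes (2.35% higher, 0.608% lower). Il19, Il24 and Nfkbiz lay apart on the higher side, which held for 11.9% of all genes. Il19 and Il24 passed the filter only through irradiated DE2, so this count and those below that include them support nothing by themselves. At an unadjusted p under 0.05 there were 3 (Il19, Il24 and Il20rb), DESeq2 called 0 and limma voom 1. Between genotypes in untreated skin edgeR, DESeq2 and limma voom each called 0 members, with 0 at an unadjusted p under 0.05, against 23.0% of all genes by edgeR (11.8% higher, 11.2% lower). Il20rb lay apart on the higher side, as did 19.4% of all genes. The interaction gave 0 member calls by edgeR and limma voom, 2 at an unadjusted p under 0.05 and 1 by DESeq2, against 10.5% of all genes by edgeR (5.64% higher, 4.84% lower). Of all genes, limma voom called 3.87% for genotype at the irradiated site, and DESeq2 called 15.1% for the interaction. The shares of all genes at an unadjusted p under 0.05 are not given here. Comparisons that use the same group of libraries are not independent of each other.

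**Figure D4:**
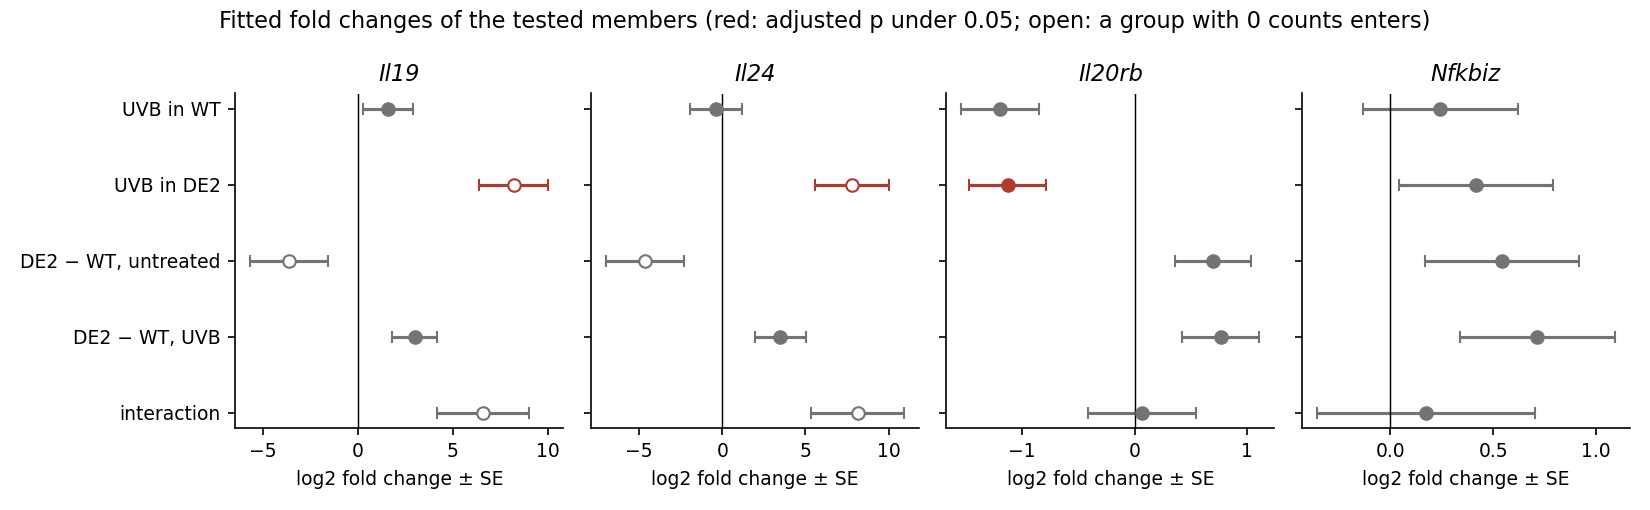
Fitted log2 fold changes ± SE of the tested members in the 5 comparisons, with red for an adjusted p under 0.05 and open points where a group with 0 counts enters, for which the fitted size is no measure. Il19 and Il24 are called with UVB in DE2 on the higher side, and Il20rb on the lower side at -1.13 ± 0.34.

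By Pearson correlation of log2 CPM over the 12 libraries, the genes most like Il19 among 15122 compared were Ggh (r = 0.986), Elovl7 (0.976) and Gm37258 (0.972). Those most like Il24 were Pla2g4d (0.934), Slpi (0.919) and Lrrc4 (0.918). Il20rb was most like Serpinb10 (0.968), Sectm1a (0.964) and Trim47 (0.937), and Nfkbiz most like Fmnl1 (0.927), Il2rg (0.924) and Lama4 (0.899). Il19 and Il24 had r = 0.88 with each other. Nfkbiz had r = 0.522 with Il19 and 0.379 with Il24, and Il20rb between -0.256 and 0.098 with the other 3. These values describe libraries that share group, depth and tissue mix.

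Of 21 tested signalling and feedback genes, 3 were higher in DE2 at the irradiated site and 0 lower, beside 2.35% of all genes higher, with a median log2 difference of 0.73 beside -0.03 over all genes. They were Stat3, the transcription factor downstream of the IL-22 and IL-20 receptors, Jak1, a kinase of those receptors, and Socs3, a feedback inhibitor that STAT3 induces. Stat3 was at 235, 260 and 223 CPM against 99.7, 97.7 and 101 CPM in WT (1.27 ± 0.18, adjusted p = 0.00165), a call kept with each library left out. Socs3 was at 61.5 ± 24.0 against 17.1 ± 8.54 CPM (1.84 ± 0.39, adjusted p = 0.0183), and Jak1 differed by 0.96 ± 0.20 (adjusted p = 0.0156). Both were lost without irradiated WT library 1 (Socs3 0.0839, Jak1 0.0848) or 3 (0.088, 0.0796), or irradiated DE2 library 1 (0.0895, 0.0652) or 2 (0.0924, 0.0854). Nfkb1, an NF-kappaB subunit, was at 84.4 ± 16.1 against 45.4 ± 15.9 CPM and did not pass (0.90 ± 0.25, adjusted p = 0.0742).

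Stat3, Jak1 and Socs3 were also higher in untreated DE2 than in untreated WT, by 0.76 ± 0.18 (adjusted p = 0.00676), 0.75 ± 0.20 (0.0125) and 1.20 ± 0.38 (0.0355). The Socs3 call was lost without untreated WT library 1 (0.0824), 2 (0.165) or 3 (0.0955), untreated DE2 library 1 (0.101) or 3 (0.0585), or irradiated DE2 library 1 (0.0572). Those of Stat3 and Jak1 were lost without untreated WT library 2 (0.0723 and 0.108), and all 3 with totals in place of composition factors (0.199, 0.21 and 0.148). There 6 of the 21 were higher and 0 lower (11.8% of all genes were higher), with Jak2, Relb and Cebpd as the others, named after their values were seen. Without untreated WT library 2 the count was 2, and it was 3 with totals in place of composition factors. None of the interactions of Stat3, Jak1 and Socs3 passed (adjusted p = 0.21, 0.682 and 0.498). Hair follicle and muscle markers differ between these same untreated groups, and with either share as a covariate 0 of the 21 were called. With the muscle share the fitted differences were 0.74 for Stat3, 1.31 for Jak2 and 1.06 for Cebpd, beside 0.76, 1.29 and 1.33 without it, and 0.39 for Jak1, 0.74 for Socs3 and 1.04 for Relb, beside 0.75, 1.20 and 1.64.

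Genes that keratinocytes are known to express in response to IL-17 were counted although the ligands were not. Of 14 tested, 12 rose with UVB in DE2 and 0 fell, with a median log2 difference of 5.32, or 4.29 when the 2 genes with 0 untreated DE2 counts are set at their bound, beside 14.4% of all genes higher. Cxcl3, Csf3 and Saa1 passed the filter only through irradiated DE2, so their difference was bound up with their being tested. Of the other 11, 9 rose with UVB in DE2 (median 3.90). At the irradiated site 6 of the 14 were higher in DE2 and 0 lower, with a median of 3.57 (5 of the other 11, median 3.15), beside 2.35% of all genes higher. These were Slpi, Cxcl2, S100a9 and Saa3, and S100a8 and Cxcl3, named after their values were seen. Slpi, a protease inhibitor of inflamed epithelium, was at 137, 149 and 94.8 CPM in irradiated DE2 and 5.48, 15.5 and 7.60 CPM in irradiated WT (3.72 ± 0.52, adjusted p = 0.00165). Cxcl2, a neutrophil attractant, was at 333 ± 179 against 2.60 ± 2.86 CPM, S100a9, a calprotectin subunit, at 2047 ± 76.6 against 116 ± 49.5 CPM, and Saa3, an acute phase protein, at 43.8 ± 19.5 against 4.88 ± 2.25 CPM.

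That count of 6 fell to 2 without irradiated WT library 1 or 3 and to 3 without irradiated DE2 library 1 or 2, and it was 10 with limma voom. With the hair follicle share as a covariate it was 1, where 2.23% of all genes were called in either direction. The count of 12 with UVB in DE2 was then 0, as was the count over all genes. Neutrophils themselves carry S100a8, S100a9, Cxcl2 and Slpi transcripts, and neutrophil markers summed to 4773 to 5055 CPM in irradiated DE2 and 257.2 to 488.7 CPM in irradiated WT. S100a8 and S100a9 are among these markers as well as among the 6, so the sum is no separate measure. Of the 12 tested neutrophil markers, 7 passed the filter only through irradiated DE2. The part of neutrophils in the counts was not tested. Csf3, a neutrophil growth factor gene, had 21, 15 and 14 counts in irradiated DE2 and 0 in the other 9 libraries. It was at least 17.4-fold higher in irradiated DE2 than in irradiated WT (adjusted p = 0.0671). In WT edgeR called 0 of the 14 with UVB (median 1.17), with 4 at an unadjusted p under 0.05 and 0 by DESeq2 and limma voom. Between genotypes in untreated skin the 3 tools called 0, with 1 at an unadjusted p under 0.05. For neither comparison is the share of all genes at that unadjusted level given here.

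Of 15 tested epidermal genes known to respond to IL-22 and the IL-20 cytokines, 13 rose with UVB in DE2 (median log2 difference 5.60) and 9 were higher in DE2 at the irradiated site (median 2.26), with 0 lower in both. The shares of all genes called higher were again 14.4% and 2.35%. Sprr2b passed the filter only through irradiated DE2, and without it the counts were 12 and 8 of 14 (medians 5.42 and 2.05). Krt6a, a keratin of wounded epidermis, was at 4571, 6131 and 4797 CPM in irradiated DE2 and 785, 601 and 396 CPM in irradiated WT. Sprr2b and Sprr2d, of the cornified envelope, were at 88.2 ± 33.6 against 1.79 ± 1.83 CPM and 892 ± 153 against 57.1 ± 27.8 CPM. Hbegf, a keratinocyte growth factor gene, was at 95.9 ± 0.756 against 20.02 ± 8.16 CPM. The 9 became 5 without irradiated WT library 3 or irradiated DE2 library 1 or 3, 4 without irradiated DE2 library 2, and 2 against a 2-fold change. The 13 became 0 with the hair follicle share as a covariate, which left 0 calls over all genes there. Keratinocyte markers summed to 22910 to 27910 CPM in irradiated DE2 and 7163 to 10150 CPM in irradiated WT. Taken singly they went both ways: of the 12, 3 were higher in irradiated DE2 and 2 lower, with a median log2 difference of 0.31. The shares of all genes were 2.35% higher and 0.608% lower. The part of keratinocytes in the counts was not tested.

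In untreated skin 4 of the 15 were lower in DE2 and 0 higher, beside 11.2% of all genes lower (Krt17, S100a7a, Sprr2h and Areg, named after their values were seen). Krt17, a keratin of follicles and wounded epidermis, was at 547 ± 60.3 against 1374 ± 296 CPM. Without untreated WT library 2 or untreated DE2 library 1, 2 were called. Reg3g, an antimicrobial lectin gene that IL-22 is known to induce, had 0 counts in all 12 libraries. With UVB in WT edgeR called 0 of the 15 (median 1.35), with 9 at an unadjusted p under 0.05, 2 by DESeq2 and 0 by limma voom. DESeq2 called 0.145% of all genes there, and the share of all genes at an unadjusted p under 0.05 is not given here. The interaction called 8 higher of 15, and 2 higher of 14 among the IL-17 response genes, beside 5.64% of all genes higher. Without the genes that passed the filter only through irradiated DE2, the counts were 8 of 14 and 2 of 11. Both counts varied with single libraries. With the hair follicle share as a covariate both were 0, as was the count over all genes.

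**Figure D5:**
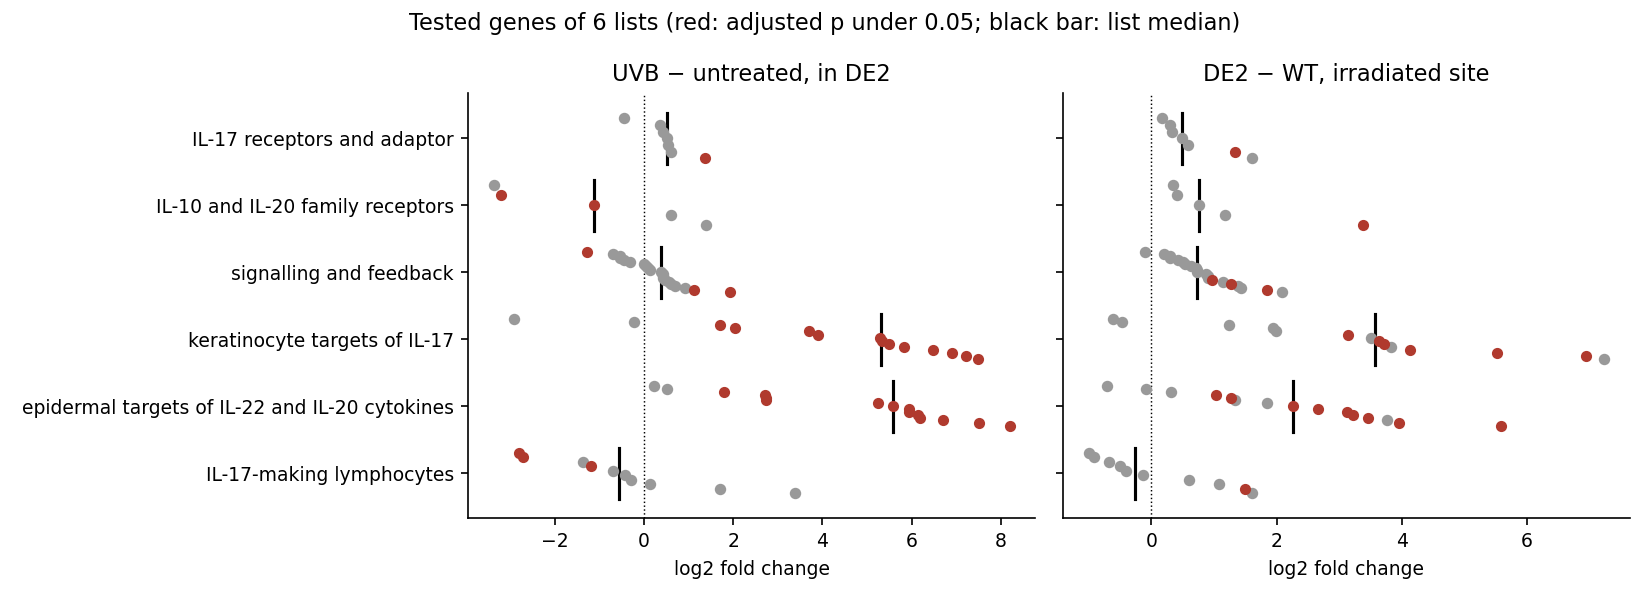
Fitted log2 fold changes of the tested genes of 6 lists, UVB against untreated in DE2 (left) and DE2 against WT at the irradiated site (right), 1 point a gene, red for an adjusted p under 0.05, with a bar at each list's median. Medians of the response lists are 5.32 and 5.60 on the left and 3.57 and 2.26 on the right.

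Markers of lymphocytes that make IL-17 were sparse. Blk had 12 counts, all in irradiated DE2 (1, 4 and 7), Ccr6 17 counts in all, 11 of them in irradiated DE2 library 2, and Trdc, of the gamma delta T cell receptor, 1 to 14 counts a library. Of 10 tested genes of this list 1 was higher in DE2 at the irradiated site (Ahr, a ligand-activated factor that also acts in keratinocytes) and 0 were lower. Of all genes 2.35% were higher there. Ahr was at 38.1, 31.5 and 30.3 CPM against 12.6, 14.5 and 8.21 CPM in WT (1.49 ± 0.32, adjusted p = 0.0202), and lost the call without irradiated WT library 1 (0.0616) or 3 (0.0974), or irradiated DE2 library 1 (0.0858) or 2 (0.0689). Il1r1 and Irf4 were at -0.68 ± 0.34 and -0.92 ± 0.58 and did not pass.

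Rora and Zbtb16, which encode transcription factors of several lymphocyte types and were named after their values were seen, fell with UVB in DE2 by 1.20 ± 0.27 and 2.81 ± 0.44 on the log2 scale (edgeR, adjusted p = 0.00482 and 0.000351). At the untreated site both were higher in DE2 than in WT, by 1.20 ± 0.27 and 2.06 ± 0.41 (edgeR, adjusted p = 0.00596 and 0.00294), as was Ahr, by 1.37 ± 0.31 (adjusted p = 0.00574). Rora lost that call without untreated WT library 2 (0.0533). These factors are also expressed outside lymphocytes, and muscle markers were at 88630 to 208700 CPM in untreated DE2 and 35310 to 44720 CPM in irradiated DE2. Of the 10 tested genes 4 were higher in untreated DE2, beside 11.8% of all genes, and 3 fell with UVB in DE2, beside 13.4%. The interaction called 3 lower, beside 4.84%. With the muscle share as a covariate 0 of the 10 were higher in untreated DE2, at 0.49 for Rora, 1.75 for Zbtb16 and 1.162 for Ahr. The Rora difference with UVB in DE2 was then -0.29 (edgeR, adjusted p = 0.706), and Zbtb16 kept its call there.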

How the data were processed

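The authors deposited raw read counts per Ensembl gene for 12 libraries of mouse skin, without normalization. Per the submitters' processing notes, HTSeq 2.0.2, SAMtools 1.16, Picard 3.1.0 and Trimmomatic 0.39 were used with GRCm38. Aligner, annotation, strandedness and treatment of duplicates: not given in the sources used here. Genes that overlap on opposite strands may therefore share reads, and copies within the Sprr2 family are uncertain. Symbols and positions came from GENCODE M21 (GRCm38), which named 53360 of 53465 identifiers, and promoters from RefSeq (GRCm38.p6), which matched 7 of 10 members.

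Counts were fitted in R 4.3.3 with edgeR 4.0.16 (filter on low counts over the groups, 15126 genes kept, TMM factors, robust quasi-likelihood model with 1 mean a group, 8 residual degrees of freedom, common dispersion 0.128). Benjamini-Hochberg adjustment ran over all genes tested, at a threshold of 0.05, for the UVB effect per genotype, the genotype effect per site and the interaction. The fit was tested on simulated data. CPM are scaled by TMM, ± SD, and fold changes carry an approximate SE. Against a group with 0 counts, a bound from 3 counts over the group is given, which takes the count of the other group as exact. No 2 libraries had equal counts for more than 2.489% of genes.

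Named beside the members are the 3 genes most correlated with each tested member (prior count of 1), ligand and receptor genes with at least 10 counts, and the 4 genes of smallest p for genotype at the irradiated site in each signalling, target and lymphocyte list. One gene that this rule names is not reported here. The members, lists and rules were chosen with earlier results of these data known. Alternatives used RLE factors, totals, 2 filters, DESeq2 1.42.0, limma 3.58.1 (voom), fewer libraries, marker shares as covariates and a 2-fold threshold. List counts under these alternatives were added after seeing the data.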

Additional observations from a re-analysis of the deposited data

How the results depend on the processing

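No paired analysis was possible because the labels carry no replicate numbers and tie no library to a mouse. Member calls with UVB in DE2 were 3, and 1 with the muscle share as a covariate (Il24) or a 2-fold threshold (Il19), 0 when the follicle share was the covariate, and 1 to 3 with a library left out (1 without irradiated DE2 library 3). The follicle covariate left 0 calls over all genes there, where that share was 1.02% to 1.68% with and 0.0163% to 0.087% without UVB. Calls went from 0 to 1 for UVB in WT without a filter, from 0 to 1 for genotype at the irradiated site without a filter or with limma voom, and from 0 to 2 for the interaction without a filter. For the interaction they were 1 with DESeq2, the muscle covariate, or irradiated WT library 2 and untreated DE2 library 1 both left out, and 0 to 1 with 1 library left out. In untreated skin they stayed at 0 under all alternatives run. Of 445 single-member values, 15 changed sign, none of them a call; the cause was not tested. For UVB in WT, Il24 was at 0.14 with limma voom and -4.64 to 4.27 with a library left out (above 0 without untreated WT library 3 or irradiated WT library 1 or 3, at 0.19 and 0.15 for the last 2), and Nfkbiz at -0.09 to 0.62. In the interaction a left-out library gave -0.23 to 0.40 for Il20rb and -0.16 to 0.56 for Nfkbiz. The hair follicle covariate gave -0.18 and -0.44 for these, and -0.28 for Nfkbiz with UVB in DE2. Il24 was not tested under the stricter filter, nor were Il19 and Il24 with only the WT or only the untreated libraries, and in untreated skin neither has a value without untreated WT library 3. At these depths 6 of the 10 members were too sparse to test.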
